A study of Mus musculus with 8 samples.

Results

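The cytochrome P450 genes Cyp2b9, Cyp2b10, Cyp2b13 and Cyp2b23 and the nuclear receptor gene Nr1i3 were followed in livers with and without hepatocyte Arid1a. They are the 5 genes of the table, out of 35638, whose symbols were listed for this set, and all 5 were found. RNA was sequenced from frozen liver of mice at postnatal day 90, kept on a mixed background of the strains C57/B6 and 129. In 4 libraries the genotype was Arid1a Fl/Fl; Alb-cre (KO), in which Cre recombinase is driven by the albumin promoter, so that the floxed gene is deleted in hepatocytes and cells of their lineage and not in macrophages or endothelial cells. The other 4 libraries were Arid1a Fl/Fl (WT), with the same floxed alleles and no Cre. The Arid1a protein is part of SWI/SNF, a complex that remodels chromatin. Values are FPKM, fragment counts scaled to transcript length and to library size, so that levels of different genes are compared per length. Whether the libraries of a genotype came from separate animals is not stated, so the p-values below rest on the variation among these samples and part of it may be technical. In bulk tissue, fewer cells of a type and less RNA per cell cannot be told apart.

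Nr1i3 encodes the constitutive androstane receptor, CAR, a nuclear receptor of hepatocytes that is held in the cytoplasm, moves to the nucleus in response to phenobarbital and related compounds, and binds DNA as a heterodimer with RXR. The Cyp2b enzymes oxidise drugs, steroids and fatty acids, and Cyp2b10 is the classical CAR target of mouse liver. Cyp2b9 and Cyp2b13 are, in mice, expressed far more in adult female than in adult male liver, and growth hormone sets that difference. The distal enhancer through which CAR acts on Cyp2b10 lies further upstream than the windows printed here.

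Arid1a was at 2.70, 2.86, 3.46 and 2.59 FPKM in KO 1 to KO 4, against 5.16, 8.38, 3.998 and 4.10 FPKM in WT 1 to WT 4, without overlap but short of the threshold over all genes (log2 change -0.67, SE 0.23, limma adjusted p = 0.316). Depth, estimated from the steps between low FPKM values, was 13700000 to 15200000 reads in KO and 12400000 to 13500000 reads in WT libraries, and 20 of 20 housekeeping genes were above 0 in every library. Sex is not given in the labels used here. Xist, the transcript of the inactive X chromosome, was at 61.4 to 93.3 FPKM in KO and 53.5 to 95.6 FPKM in WT libraries, and the Y-linked transcripts Ddx3y, Kdm5d, Eif2s3y and Uty reached at most 0.0527 FPKM in any library. Tests of KO minus WT on log2(FPKM + 1) were two-sided and covered the 11266 genes with a mean of at least 1 FPKM. Of these, 0.763% passed an adjusted p of 0.05, 0.355% lower and 0.408% higher in KO. The groups did not overlap in 6.23% of tested genes, 9.81% had an unadjusted p under 0.05, and 54.5% had a negative change.

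The Cyp2b genes lie on chromosome 7 within a cluster of Cyp2 genes, all on GRCm38. Cyp2b10 (ENSMUSG00000030483) spans chr7:25897620-25926624, Cyp2b13 (ENSMUSG00000040583) chr7:26061497-26096197 and Cyp2b9 (ENSMUSG00000040660) chr7:26173411-26210661, all on the plus strand. Cyp2b23 (ENSMUSG00000040650) spans chr7:26665227-26686437 on the minus strand, beyond Cyp2a4. Each has 9 exons. The coding sequences of Cyp2b9 and Cyp2b13 were 92.7% identical, those of Cyp2b9 and Cyp2b10 87.8%, and Cyp2b23 was 85.1 to 87.6% identical to the other members. Their promoters are printed because Cyp2b9 and Cyp2b13 moved together from library to library while Cyp2b10 and Cyp2b23 had far lower mean levels. Cyp2b10 nevertheless had the same order of libraries as Cyp2b13 within each genotype. A link between promoter sequence and level or pattern was not tested. The RefSeq sequences of GRCm38.p6 run 5' to 3' on each gene's strand, from 250 to 39 bases before the RefSeq start of transcription. That start lies 38 bases downstream of the GENCODE start given above for Cyp2b10, 7 bases downstream for Cyp2b23 and 2 bases upstream for Cyp2b9 and Cyp2b13. Capitals mark the bases at which Cyp2b9 and Cyp2b13 differ and the octamer TTGTATAA or TTGCATAA, a motif chosen after the sequences were read.
Cyp2b9: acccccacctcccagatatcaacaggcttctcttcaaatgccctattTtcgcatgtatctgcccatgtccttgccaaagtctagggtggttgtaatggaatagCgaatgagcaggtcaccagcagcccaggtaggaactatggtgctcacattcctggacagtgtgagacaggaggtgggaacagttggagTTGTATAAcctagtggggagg
Cyp2b13: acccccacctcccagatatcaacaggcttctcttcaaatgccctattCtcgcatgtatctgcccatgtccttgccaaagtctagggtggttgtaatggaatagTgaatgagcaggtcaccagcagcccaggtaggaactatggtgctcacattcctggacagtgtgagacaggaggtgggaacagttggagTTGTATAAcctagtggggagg
Cyp2b10: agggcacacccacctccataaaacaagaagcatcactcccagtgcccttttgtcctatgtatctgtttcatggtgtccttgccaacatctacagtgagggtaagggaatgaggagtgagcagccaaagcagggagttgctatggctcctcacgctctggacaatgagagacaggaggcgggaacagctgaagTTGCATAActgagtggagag
Cyp2b23: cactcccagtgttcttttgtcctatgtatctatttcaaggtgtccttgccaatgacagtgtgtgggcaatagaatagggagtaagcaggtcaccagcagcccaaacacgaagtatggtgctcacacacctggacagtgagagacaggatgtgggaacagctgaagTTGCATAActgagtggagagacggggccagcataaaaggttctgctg
These are chr7:26173159-26173370, chr7:26061245-26061456 and chr7:25897408-25897619 on the plus strand, and chr7:26686469-26686680 on the minus strand.

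Over the full 250 bases before the RefSeq start, from which all distances below are counted, the promoters of Cyp2b9 and Cyp2b13 were 99.2% identical. With Cyp2b13 as the base given first and positions counted from 1 at the 5' end of the window, they differed by C48T and T104C, at 203 and 147 bases before the start. Cyp2b9 and Cyp2b10 were 70% identical, and Cyp2b23 was 63.0% identical to Cyp2b9 and 62.3% to Cyp2b10. Both strands were searched for each motif, and no match overlapped another. TTGTATAA begins 59 bases before the start in Cyp2b9 and Cyp2b13, and 0.5% of 27025 promoters of the same length hold it. TTGCATAA begins 58 bases before the start in Cyp2b10 and 85 bases before it in Cyp2b23, and 0.7% of promoters hold it. AGGTCA, the core hexamer bound by many nuclear receptors, was found 138 bases before the start in Cyp2b9 and Cyp2b13 and 164 bases before it in Cyp2b23, against 13.8% of all promoters. It was not found in this window of Cyp2b10.

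Cyp2b9 had the highest mean of the 4 Cyp2b genes and the widest spread within both genotypes, although Cyp2b10 exceeded it in KO 3, KO 4 and WT 4. It was at 72.2, 100.2, 0 and 0.0340 FPKM in KO 1 to KO 4, against 206.3, 233.8, 128.6 and 0 FPKM in WT 1 to WT 4. KO 3, KO 4 and WT 4 were thus at or near 0, whereas the other 5 libraries were all at 72.2 FPKM or more, and the groups overlapped. With the estimated depth, 3 reads of Cyp2b9 would give 0.117 FPKM in KO 3, 0.108 FPKM in KO 4 and 0.129 FPKM in WT 4, so all 3 libraries lay below the level of 3 reads. The means were 43.1 ± 51.0 FPKM in KO and 142 ± 105 FPKM in WT (SD, n = 4 each). The log2 change was -2.42 (SE 2.1, 95% interval -7.12 to 2.28), and it was not called (limma adjusted p = 0.821, exact permutation p = 0.2286).

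Cyp2b13 had the same distribution at a lower level. It was at 16.3, 33.4, 0.165 and 0.0540 FPKM in KO 1 to KO 4, against 47.1, 78.6, 37.9 and 0 FPKM in WT 1 to WT 4. The 3 libraries at or near 0 for Cyp2b9 were those with the least Cyp2b13, and within both genotypes the highest library was replicate 2 for both genes. Its means were 12.5 ± 15.9 FPKM in KO and 40.9 ± 32.4 FPKM in WT (SD, n = 4 each). The log2 change of -1.92 (SE 1.55, 95% interval -5.38 to 1.55) was within the spread (limma adjusted p = 0.805, exact permutation p = 0.2571).

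Cyp2b10, the CAR target, was low throughout. It was at 2.18, 3.37, 1.83 and 0.234 FPKM in KO 1 to KO 4, against 3.96, 7.61, 3.16 and 0.0761 FPKM in WT 1 to WT 4. WT 4 was lowest here too and KO 4 next to it, but KO 3 lay close to KO 1. Means of 1.90 ± 1.29 FPKM in KO and 3.70 ± 3.10 FPKM in WT (SD, n = 4 each) gave a log2 change of -0.49 (SE 0.61, 95% interval -1.86 to 0.87, limma adjusted p = 0.889, exact permutation p = 0.5143).

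Cyp2b23 was at 0, 0.0528, 0.0556 and 0 FPKM in KO 1 to KO 4, against 0.155, 0.193, 0.121 and 0 FPKM in WT 1 to WT 4. A count of 3 reads would give 0.0902 to 0.1 FPKM in KO and 0.102 to 0.111 FPKM in WT libraries, so every KO value and WT 4 lay below that level and WT 1 to WT 3 just above it. Its mean of less than 1 FPKM kept it out of the test over all genes, and the exact permutation p was 0.1429. At this depth a difference was not detectable.

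**Figure D1:**
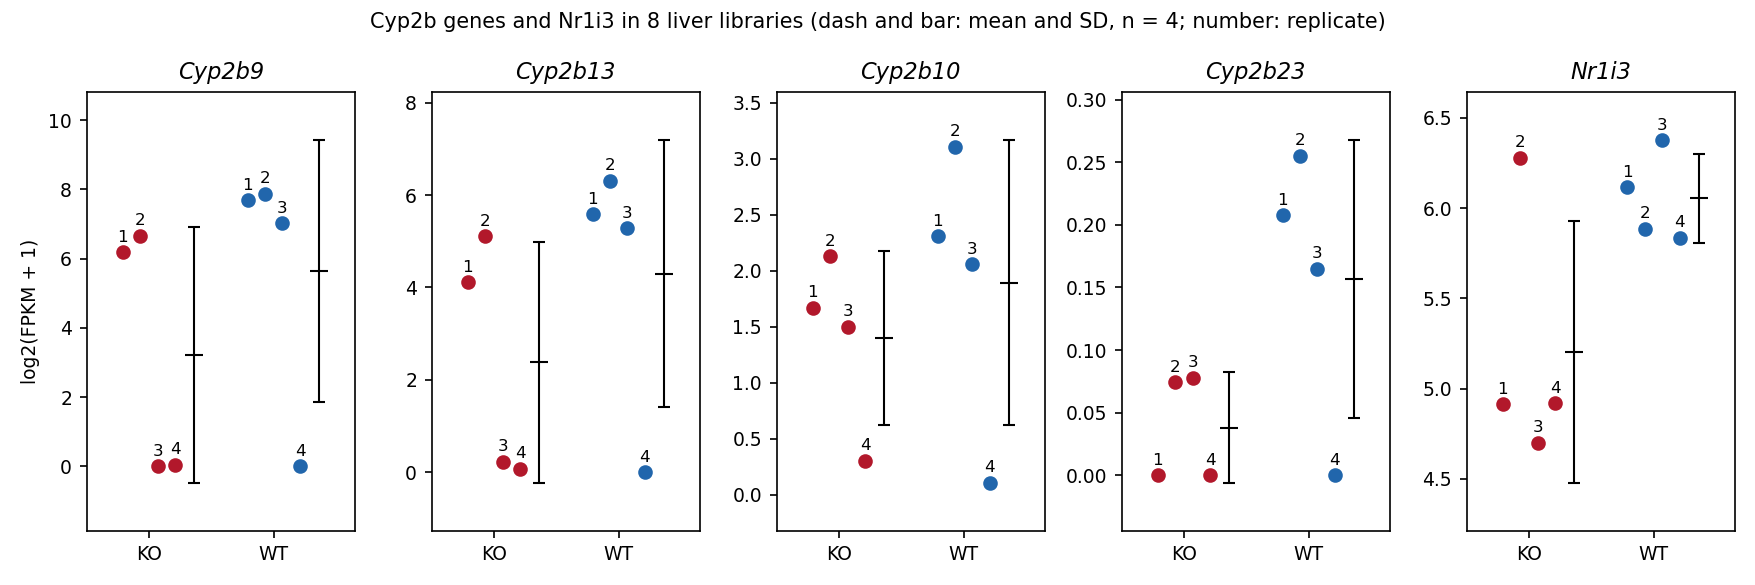
Level of each Cyp2b gene and of Nr1i3 on the log2(FPKM + 1) scale in KO libraries (red, left) and WT libraries (blue, right), with the replicate number above each point and the mean and SD of 4 libraries beside them; the vertical scales differ between panels. KO 3, KO 4 and WT 4 sit at the bottom for Cyp2b9 and Cyp2b13, and KO 2 alone among KO libraries sits within the WT range for Nr1i3.

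Nr1i3 (ENSMUSG00000005677, chr1:171213970-171220701, plus strand) was lower in 3 of 4 KO libraries than in any WT library. It was at 29.2, 76.7, 25.0 and 29.2 FPKM in KO 1 to KO 4, against 68.3, 58.2, 82.2 and 56.2 FPKM in WT 1 to WT 4. KO 2 exceeded 3 of the 4 WT libraries, so the groups overlapped. The means were 40.0 ± 24.5 FPKM in KO and 66.2 ± 11.9 FPKM in WT (SD, n = 4 each). The log2 change was -0.85 (SE 0.33, 95% interval -1.6 to -0.11), with an unadjusted p of 0.0292 and an adjusted p of 0.417 in limma and an exact permutation p of 0.1143, and it was not called. Without KO 2 the change was -1.21 (SE 0.20) and passed (limma adjusted p = 0.0289), in a fit that called 0.389% of genes lower. That fit leaves out the only KO value within the WT range, so its p was not taken as evidence of a fall. With any other single library left out Nr1i3 was not called (limma adjusted p = 0.413 to 0.699). WT 4, which had no Cyp2b9, had 56.2 FPKM of Nr1i3, and KO 1, with 72.2 FPKM of Cyp2b9, had 29.2 FPKM. KO 2 had the highest KO value of both genes, and KO 3 and KO 4 were low for both. A link between the levels of Nr1i3 and Cyp2b9 was not tested.

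Thus limma called 0 of the 4 tested members, against 0.763% of all tested genes, with 1, Nr1i3, at an unadjusted p under 0.05 against 9.81%, and 0 of the 4 were without overlap, against 6.23%. All 4 changes were negative, against 54.5% of tested genes, and 3 of the 4 share neighbouring positions and part of their sequence. In mean level on the FPKM scale the order in KO livers was Cyp2b9, Nr1i3, Cyp2b13, Cyp2b10 and Cyp2b23, and in WT livers it was the same. In both genotypes the range of Cyp2b9 over the libraries enclosed all values of Nr1i3 and Cyp2b13. Within a library the order of means did not always hold, since Nr1i3 exceeded Cyp2b9 in KO 3, KO 4 and WT 4. Where both were expressed, Cyp2b9 exceeded Cyp2b13 in the same library by a factor of 2.98 to 4.44.

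The spread within genotypes was what set Cyp2b9 and Cyp2b13 apart in this table. On the log2(FPKM + 1) scale the SD of Cyp2b9 was 3.70 among KO and 3.78 among WT libraries, rank 2 of 11266 tested genes in both. Cyp2b13 had SDs of 2.61 in KO and 2.90 in WT, ranks 5 and 4. The median gene had an SD of 0.31 in KO and 0.33 in WT. Cyp2b10 was less extreme, with an SD of 0.78 in KO (rank 814) and 1.27 in WT (rank 174). Nr1i3 had an SD of 0.73 in KO (rank 974), where KO 2 stood away from the rest, and of 0.25 in WT (rank 7478), which is below that of the median gene. The share of the log2 variance that lay between the genotype means was 12.2% for Cyp2b9, 13.9% for Cyp2b13, 6.8% for Cyp2b10 and 45.1% for Nr1i3. Means of 4 libraries also differ by chance, so such a share is above 0 without any effect of genotype. It was not taken over all genes.

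**Figure D2:**
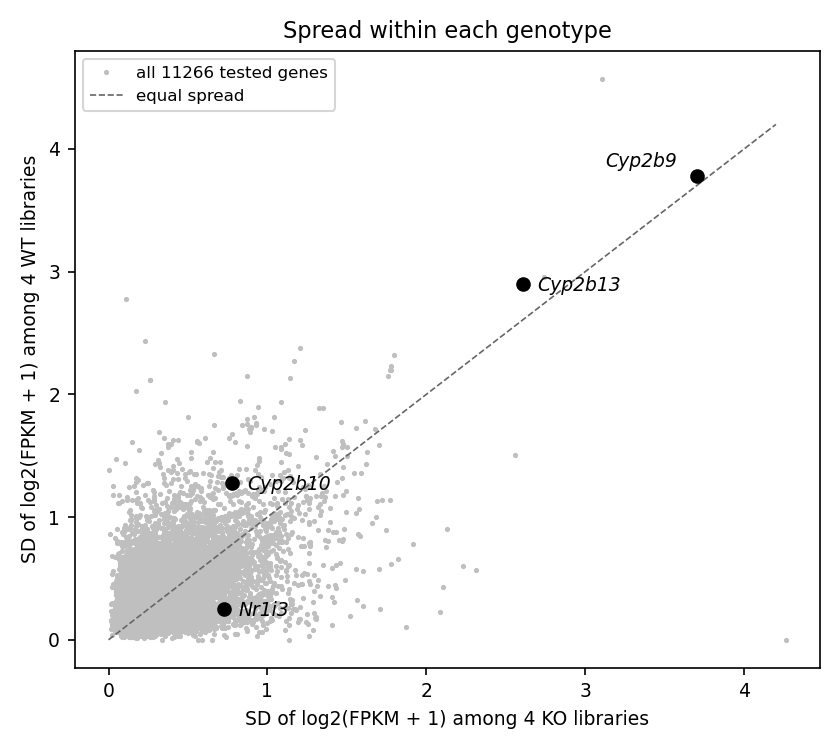
SD of log2(FPKM + 1) among the 4 KO libraries (horizontal) and the 4 WT libraries (vertical) for the 11266 tested genes (grey), with the 4 tested members in black and a dashed line of equal spread. Cyp2b9 and Cyp2b13 lie far out in both genotypes, while Nr1i3 varied more among KO than among WT libraries.

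Where both genes were expressed, the level of Cyp2b9 per length was a few times that of Cyp2b13 in both genotypes. Cyp2b9 exceeded Cyp2b13 by a factor of 4.44 in KO 1 and 3.0 in KO 2, against 4.38 in WT 1, 2.98 in WT 2 and 3.39 in WT 3. The highest and the lowest ratio of KO libraries lay within 0.1 of those of WT libraries. Cyp2b9 exceeded Cyp2b10 by a factor of 33.1 in KO 1 and 29.7 in KO 2, against 52.2, 30.7 and 40.6 in WT 1 to WT 3. The summed level of the 4 P450 genes was 90.7, 137, 2.05 and 0.322 FPKM in KO 1 to KO 4, against 257, 320, 170 and 0.0761 FPKM in WT 1 to WT 4. Some reads could fit more than 1 of these genes. Of the windows of 50 bases in its transcript, Cyp2b13 shared 27.3% with other genes of the family, Cyp2b9 11.2%, Cyp2b10 9.7% and Cyp2b23 4.4%. How the authors counted such reads is not given in the sources used here, so low values of Cyp2b13 and Cyp2b10 beside abundant Cyp2b9 are uncertain.

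The genes that lie with Cyp2b10, Cyp2b13 and Cyp2b9 on chromosome 7 were lowest in the same 3 libraries. The table held 40 genes over the 1356 kb from Cyp2s1 to Cyp2t4. Of the 10 genes from Cyp2b10 to Cyp2b9, 9 had KO 3, KO 4 and WT 4 as their 3 lowest libraries, the exception being the pseudogene Gm45227. Of the 25 other genes of the cluster above 0 in a library, 0 had that order, and it was found in 1.13% of all tested genes (127 of 11266). The 3 libraries were picked for their Cyp2b9 values and Cyp2b9 is itself among the 9, so these counts are a description without a test. The 1.13% covers genes with a mean of at least 1 FPKM. Gm45227, Cyp2b26-ps, Cyp2b27-ps and BC026762 lie below that level, so the 2 shares are not of like genes. Which strain's copy of this region each library carried is not given in the labels used here, and its part in these values was not tested.

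Of the 9 genes, Gm45225, an unprocessed pseudogene between Cyp2b10 and Cyp2b13, was at 2.15, 4.54, 0.598 and 0 FPKM in KO 1 to KO 4, against 5.91, 11.3, 4.50 and 0 FPKM in WT 1 to WT 4. Gm29920, a processed pseudogene between Cyp2b13 and Cyp2b9, was at 1.12, 3.56, 0 and 0 FPKM in KO 1 to KO 4, against 5.29, 11.0, 6.26 and 0 FPKM in WT 1 to WT 4. Both thus had the same 3 libraries lowest as Cyp2b13 and Cyp2b9. Rnf170-ps, which lies inside Cyp2b13 on the same strand, was at 1.90, 7.04, 0.510 and 0.657 FPKM in KO 1 to KO 4, against 7.97, 6.82, 10.9 and 1.08 FPKM in WT 1 to WT 4. The 3 low libraries kept some of it while Cyp2b13 was at most 0.165 FPKM there. The pseudogenes Cyp2b26-ps and Cyp2b27-ps and the noncoding gene BC026762 averaged 0.0887 to 0.154 FPKM, a level of few reads, and shared windows made up 67.4% of Cyp2b26-ps, 57.1% of Cyp2b27-ps and 25.6% of Gm45225.

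The next P450 gene, Cyp2a4, a steroid hydroxylase gene that begins 96.5 kb past the end of Cyp2b9, did not have this order. It was at 357, 255, 435 and 471 FPKM in KO 1 to KO 4, against 701, 459, 345 and 199 FPKM in WT 1 to WT 4. KO 3 and KO 4 were the highest KO libraries for Cyp2a4, and WT 4 was the lowest of all. Cyp2a5, a coumarin hydroxylase gene further along, was at 125, 88.0, 178 and 146 FPKM in KO 1 to KO 4, against 273, 260, 121 and 116 FPKM in WT 1 to WT 4. Of the 7 tested P450 genes and pseudogenes of the cluster outside the Cyp2b family, limma called 0, against 0.763% of all tested genes. At an unadjusted p under 0.05 there was 1, against 9.81%. That was Cyp2g1, whose groups did not overlap (log2 change -1.27, limma adjusted p = 0.243), as for 6.23% of all tested genes. Its mean of 1.19 FPKM was close to the minimum of 1 FPKM for the test.

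**Figure D3:**
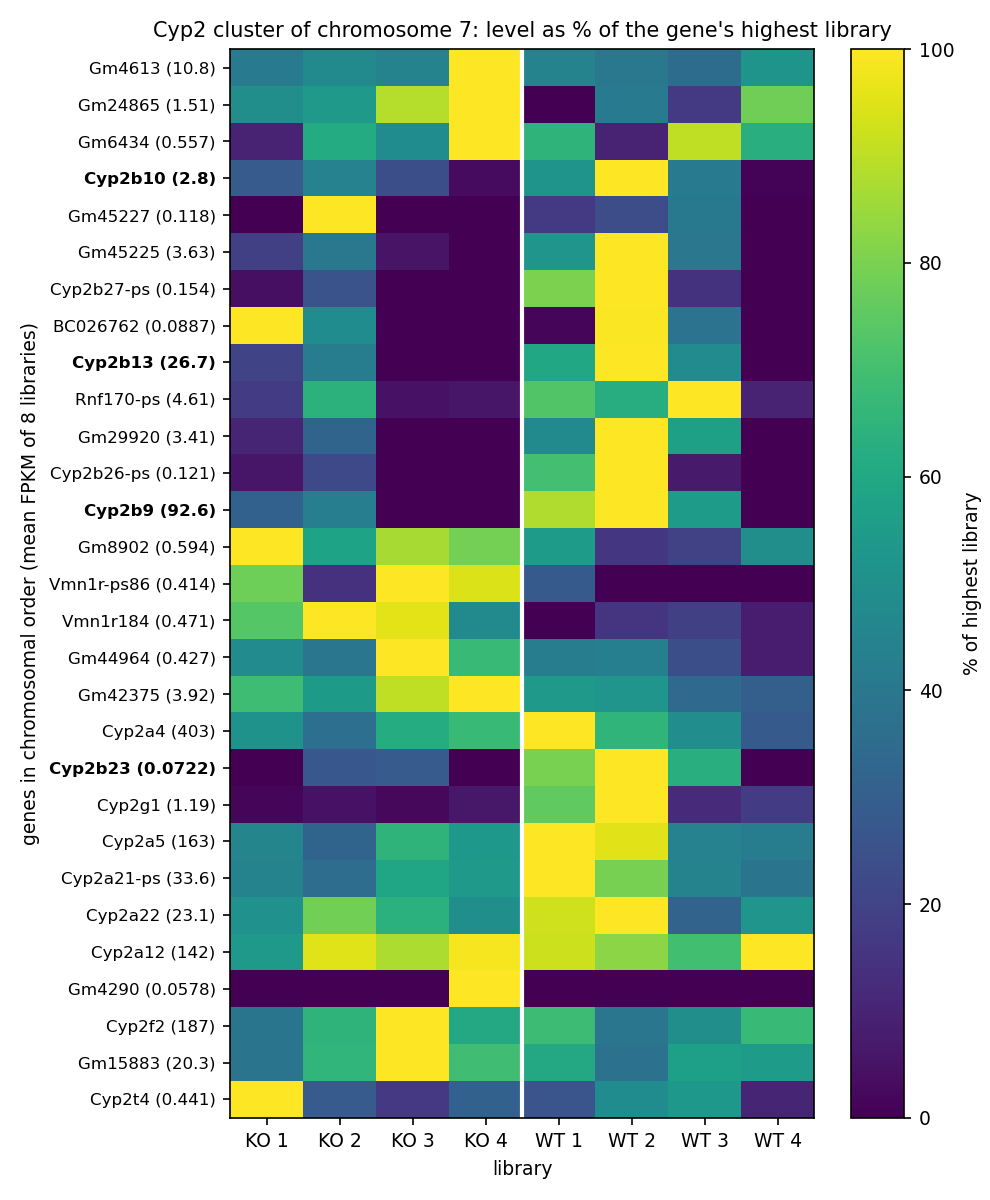
Level of genes of the Cyp2 cluster in chromosomal order (rows, with the mean FPKM of 8 libraries in parentheses) in KO 1 to KO 4 and WT 1 to WT 4 (columns), as a percentage of the highest library of each gene; members are in bold. From Cyp2b10 to Cyp2b9, KO 3, KO 4 and WT 4 are the 3 lowest libraries in each row but Gm45227. For Cyp2b10, KO 3 at 24.0% lies close to KO 1 at 28.7%. Some other libraries are dark there too, such as KO 1 for Cyp2b26-ps (5.9%) and WT 1 for BC026762 (1.3%). The rows of Cyp2a4, Cyp2a5 and Cyp2f2 do not have these 3 libraries lowest, although WT 4 is the lowest for Cyp2a4, at 28.4%.

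WT 4 was the lowest of the 8 libraries for 10 of 18 tested clock genes and the highest for 17 of 24 tested fasting genes. How often WT 4 was lowest or highest over all tested genes was not counted, so these counts have no background share. WT 4 also had the fewest genes above 0, 20164, against 20639 to 22273 in the other libraries. Dbp, a clock output factor, was at 20.8, 58.9, 25.8 and 43.3 FPKM in KO 1 to KO 4, against 42.4, 49.3, 22.6 and 0.569 FPKM in WT 1 to WT 4. Cyp4a10, a fatty acid hydroxylase gene driven by PPAR-alpha, was at 5.93 to 44.3 FPKM in KO libraries, against 317 FPKM in WT 4 and 41.8 to 54.3 FPKM in the other WT libraries. KO 3 and KO 4, which shared the low Cyp2b values, were at 16.7 and 5.93 FPKM of Cyp4a10, and KO 4 was the lowest of all 8. Between the genotypes limma called 0 of the clock genes (2 at an unadjusted p under 0.05), with a median change of 0.12, and 0 of the fasting genes (6 at an unadjusted p under 0.05), with a median of -0.28. Over all tested genes the share at an unadjusted p under 0.05 was 9.81%. Without WT 4 the log2 change was -4.30 for Cyp2b9, -3.35 for Cyp2b13 and -1.09 for Cyp2b10, and none was called (limma adjusted p = 0.399, 0.343 and 0.407). A link of these clock and fasting values of WT 4 to its Cyp2b values was not tested.

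The 3 tested genes nearest to each member in pattern were taken by the root mean square difference of log2(FPKM + 1), after subtracting each gene's mean over the 8 libraries and leaving out genes with a predicted name (Gm or Rik), which left 9097. For Cyp2b9 they were Cyp2b13 at 0.94, Cux2 at 2.44 and Rnf170-ps at 2.47, and for Cyp2b13 they were Cyp2b9 at 0.94, Cux2 at 1.53 and Rnf170-ps at 1.58. Among the predicted genes left out, Gm29920 and Gm45225 of the Cyp2b stretch were nearer than Cux2, at 2.25 and 2.29 from Cyp2b9 and at 1.32 and 1.37 from Cyp2b13. Cux2, a homeobox transcription factor gene of female mouse liver, lies outside the cluster. It was at 1.60, 13.6, 0.776 and 3.14 FPKM in KO 1 to KO 4, against 9.81, 33.9, 8.90 and 0.480 FPKM in WT 1 to WT 4. Its highest library in each genotype was replicate 2, as for Cyp2b9, but KO 4 exceeded KO 1. The nearest to Cyp2b10 included Lncpint at 0.43 and Mir6970 at 0.49. All of these distances are descriptions over 8 libraries that share depth and scaling.

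With the same genes left out, Nr1i3 was nearest to Acad9 at 0.17, Tomm40l at 0.22 and Fgf1 at 0.30. Acad9, a mitochondrial acyl-CoA dehydrogenase gene, was at 3.32, 8.65, 3.11 and 3.57 FPKM in KO 1 to KO 4, against 8.85, 7.83, 8.07 and 7.42 FPKM in WT 1 to WT 4. This repeated the order of Nr1i3 in that KO 2 alone among KO libraries reached the WT range. Tomm40l, a gene of a mitochondrial import protein, overlaps Nr1i3 on the opposite strand and was at 11.5, 26.4, 12.0 and 11.4 FPKM in KO 1 to KO 4, against 26.2, 18.5, 25.3 and 16.9 FPKM in WT 1 to WT 4 (log2 change -0.54, limma adjusted p = 0.608). Nr1i3 exceeded it by a factor of 2.07 to 2.9 in KO and 2.61 to 3.32 in WT libraries. The use of strand is not given in the sources used here, so reads from the overlap of Nr1i3 and Tomm40l cannot be told apart.

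**Figure D4:**
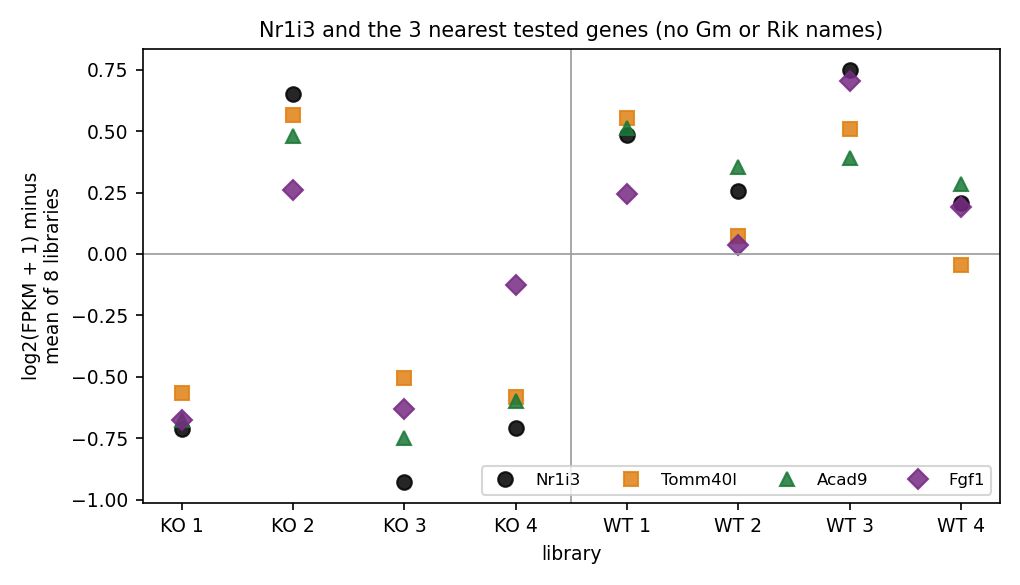
Difference of log2(FPKM + 1) from the gene's mean over 8 libraries (vertical) for Nr1i3 and the genes nearest to it in pattern once Gm and Rik names were left out, Acad9, Tomm40l and Fgf1, in KO 1 to KO 4 (left) and WT 1 to WT 4 (right). KO 2 lies above 0 for all 4 genes, and KO 1, KO 3 and KO 4 lie below it.

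Marker sums of macrophages, endothelial cells and stellate cells did not overlap between the genotypes. How often sums of other genes do so was not counted. The summed level of 11 macrophage markers was 20.4 to 153 FPKM in KO and 6.56 to 14.7 FPKM in WT livers. All 10 tested ones were higher in KO by their means, and limma called 0 of them, against 0.763% of all tested genes. An unadjusted p under 0.05 was found for 10, against 9.81% of all tested genes. Without KO 2, the fit in which Nr1i3 was called, limma called 9 of the macrophage markers, 3 of the endothelial and 1 of the stellate markers. That comparison was added after the data were seen, and over all 11320 genes tested in that fit 92 were called higher. Without WT 4 and KO 2 these numbers were 8, 1 and 1, and over all genes 75 were called higher. Timd4 and Marco were at 0 in at least 1 WT library. Clec4f, a Kupffer cell lectin gene, was at 21.6, 3.79, 31.4 and 17.0 FPKM in KO 1 to KO 4, against 2.26, 1.85, 3.27 and 2.92 FPKM in WT 1 to WT 4 (limma adjusted p = 0.114). KO 2, with the most Nr1i3 among KO livers, had the least Clec4f among them. Endothelial markers summed to 12.6 to 25.6 FPKM in KO and 2.09 to 7.80 FPKM in WT, with all 6 tested ones positive, and Lyve1 was at 0 in at least 1 library. Stellate markers summed to 14.7 to 30.1 FPKM in KO and 2.91 to 7.69 FPKM in WT, with all 4 tested ones positive, and Des and Col1a1 were at 0 in at least 1 library. In both lists limma called 0, and every tested gene had an unadjusted p under 0.05, against 9.81% of all tested genes. Cholangiocyte markers summed to 0.527 to 6.84 FPKM in KO and 0.269 to 0.792 FPKM in WT, and lymphocyte markers to at most 0.212 FPKM in KO and 0.119 FPKM in WT. Hepatocyte markers summed to 32694 to 46924 FPKM in KO and 30307 to 41218 FPKM in WT, with 0 of 10 called in limma (1 lower without KO 2) and 2 at an unadjusted p under 0.05. The part of these cells in the Nr1i3 values was not tested.

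Among 33 tested partners and regulators of CAR, limma called 0, with 2 at an unadjusted p under 0.05 against 9.81% of all tested genes, and their median change was -0.06, against -0.03. Rxra, the main heterodimer partner in liver, was at 41.2, 64.3, 60.0 and 59.1 FPKM in KO 1 to KO 4, against 57.4, 61.7, 61.1 and 67.7 FPKM in WT 1 to WT 4. Nr1i2, which encodes the related xenobiotic receptor PXR, was at 22.8, 16.7, 12.6 and 11.8 FPKM in KO 1 to KO 4, against 16.8, 12.7, 17.6 and 17.9 FPKM in WT 1 to WT 4. Both overlapped between the groups (limma adjusted p = 0.879 for Rxra and 0.977 for Nr1i2). Hnf4a, a hepatocyte factor that acts on the Nr1i3 promoter, was at 71.7 to 97.4 FPKM in KO and 75.0 to 98.8 FPKM in WT livers. The smallest p belonged to Hlf, a clock-controlled factor of the PAR bZIP family that acts on Nr1i3 and Por. It was at 5.23, 7.72, 6.97 and 11.9 FPKM in KO 1 to KO 4, against 14.3, 15.9, 13.4 and 12.7 FPKM in WT 1 to WT 4, without overlap (log2 change -0.80, limma adjusted p = 0.206).

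Of 56 tested CAR-responsive genes of mouse liver, 4 rose and 2 fell in KO livers, against 0.763% called over all tested genes. Positive changes numbered 27 and negative changes 29, and the median was -0.04. Those that rose were the glutathione transferase genes Gsta1 (log2 change 2.40, limma adjusted p = 0.000722), Gsta2 (2.66, limma adjusted p = 0.00485) and Gstm3 (1.54, limma adjusted p = 0.0142) and the efflux transporter gene Abcc4 (1.32, limma adjusted p = 0.0257). Those that fell were Abcc3, an exporter of conjugates, and Cyp3a11, a major drug-oxidising P450. Abcc3 was at 11.9, 3.87, 5.34 and 3.48 FPKM in KO 1 to KO 4, against 42.1, 36.6, 31.8 and 58.6 FPKM in WT 1 to WT 4 (log2 change -2.70, limma adjusted p = 0.00817). Cyp3a11 was at 163, 109, 109 and 84.8 FPKM in KO 1 to KO 4, against 318, 250, 325 and 374 FPKM in WT 1 to WT 4 (log2 change -1.46, limma adjusted p = 0.0217). In KO 2, where Nr1i3 was at 76.7 FPKM, both stayed with the other KO libraries. Cyp2c37, of the same list, had its highest KO value there. Whether any of these genes follows Nr1i3 was not tested.

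Other CAR-responsive P450 genes did not pass. Cyp2c29 was at 107, 219.5, 157 and 257 FPKM in KO 1 to KO 4, against 268, 298, 234 and 478 FPKM in WT 1 to WT 4 (limma adjusted p = 0.415), and Cyp2c37 was at 22.5, 115, 30.7 and 71.3 FPKM in KO 1 to KO 4, against 90.1, 121, 132 and 232 FPKM in WT 1 to WT 4 (limma adjusted p = 0.329). Neither was near 0 in KO 3, KO 4 or WT 4. The number higher was 2 without KO 4 or without WT 1. The number lower was 1 without KO 3, KO 4, WT 1, WT 3 or WT 4, and without WT 4 and KO 2 together 3 were higher and 1 lower. With the replicate block 2 were higher and 0 lower. The list holds 3 of the members, and Gsta1 and Gsta2 are near-identical copies whose reads can be split between them.

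**Figure D5:**
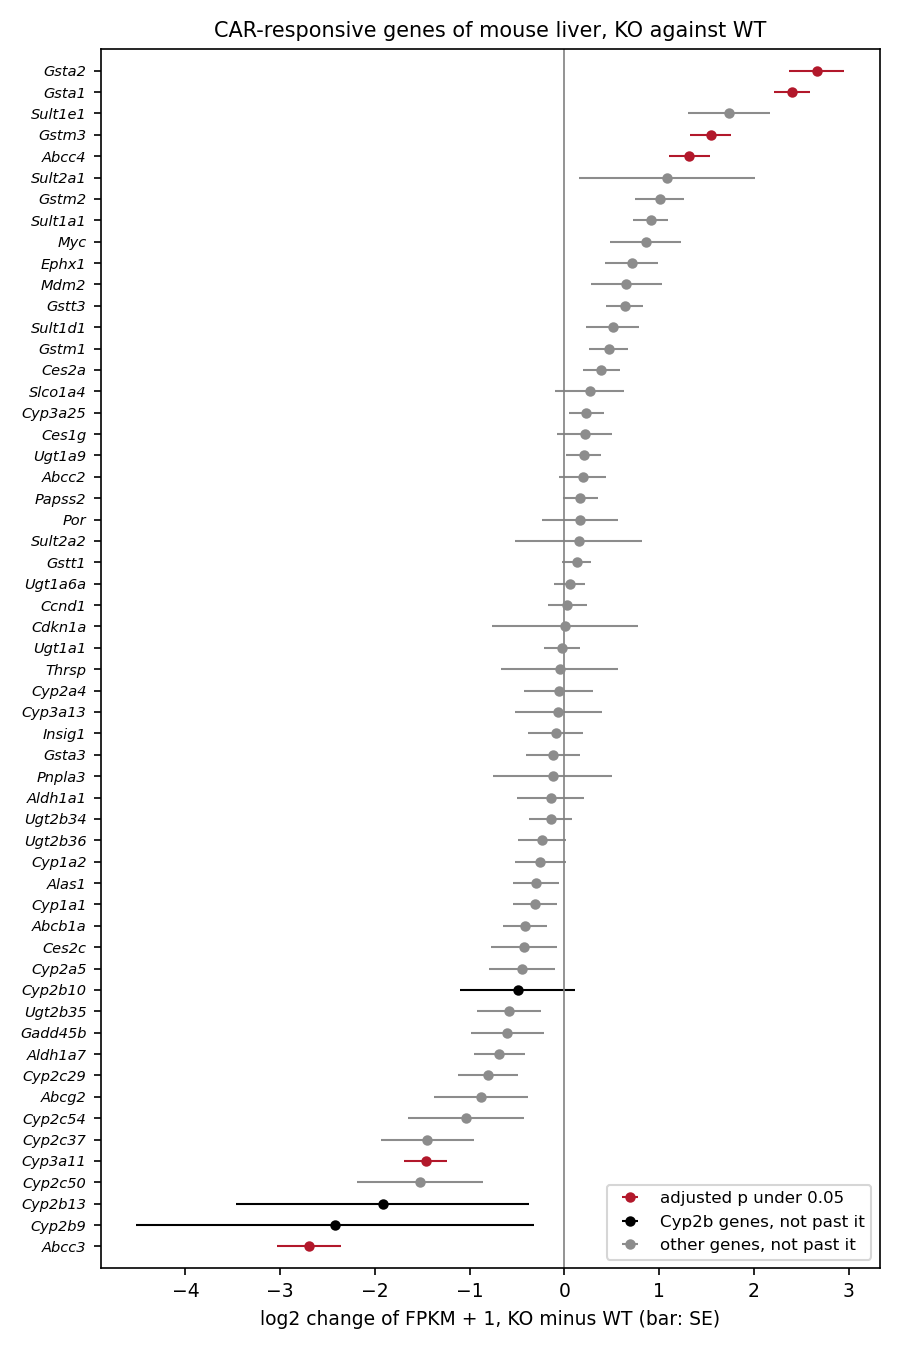
Log2 change of FPKM + 1, KO minus WT, with its SE (bars) for the 56 tested CAR-responsive genes, ordered by size; red marks genes past an adjusted p of 0.05 and black the Cyp2b genes. Gsta1, Gsta2, Gstm3 and Abcc4 lie to the right and Abcc3 and Cyp3a11 to the left, while Cyp2b9 and Cyp2b13 have changes of similar size to Abcc3 with far wider bars.

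Of 39 tested female-biased liver genes, the group to which Cyp2b9 and Cyp2b13 belong, 2 fell and 0 rose, against 0.355% lower and 0.408% higher over all tested genes, with a median change of -0.28. They were Prlr, the prolactin receptor gene (log2 change -1.32, limma adjusted p = 0.0392), and Fmo2, a flavin monooxygenase gene (-1.56, limma adjusted p = 0.0423). The number lower was 0 without KO 1, KO 3, KO 4, WT 2, WT 3 or WT 4, and with the replicate block. In WT 4, where Cyp2b9 was at 0 FPKM, Prlr was at 67.8 FPKM, the highest of the 8 libraries. Cyp2a4, at 199 FPKM, and Cux2, both of the same list, were instead at their lowest of the 8 libraries there. The rest of the list was not ranked by library. Of 27 male-biased genes, Mup20, a major urinary protein gene, rose (log2 change 2.08, limma adjusted p = 0.00295), Cyp2u1 fell (-1.11, limma adjusted p = 0.0302) and the median was -0.51. The number lower was 0 without any 1 of the 8 libraries, with the replicate block, with a pseudocount of 0.1 FPKM, with no filter and at a minimum of 5 FPKM, while the number higher was 1 in each of these. Of 9 tested pericentral markers, genes of the hepatocytes around the central vein where CAR targets are strongest, 2 fell, with a median of -0.66: Oat (log2 change -2.25, limma adjusted p = 0.0162) and Tbx3 (-1.75, limma adjusted p = 0.00649). The number lower was 1 without KO 3 or without KO 4, with the replicate block, with no filter and at a minimum of 5 FPKM, and 3 without KO 2. Both were without overlap between the groups, and both were at their highest in WT 4, where all 4 Cyp2b genes were at, or tied for, their lowest level.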

How the data were processed

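The authors deposited FPKM values for 35638 genes in 8 libraries, with Ensembl identifiers, symbols and biotypes. The RNA came from a Trizol and miRNeasy extraction and the libraries from a Nugen protocol, per the labels. The build mm10 and the tools TopHat and edgeR are named in the submitters' processing notes. The sources used here do not give their roles, the annotation, the use of strand or the maker of the FPKM.

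FPKM were analysed as log2(FPKM + 1) with no other scaling, so changes of low genes are understated. Genes with a mean of at least 1 FPKM (11266) were compared by limma 3.58.1 in R 4.3.3 with an intensity trend, two-sided, Benjamini-Hochberg adjusted, threshold 0.05. Exact permutation used 70 splits, with a smallest p of 0.0286. Depth was estimated from the steps of low values in 12059 genes with 1 transcript of at least 400 nt, searching 8000000 to 20000000 reads. With it 56.4 to 60.5% of low values lay within 0.1 of whole reads, against 20% by chance, so no reads were rebuilt.

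Coordinates come from GENCODE M21 (GRCm38), which matched 99.4% of identifiers. Promoters come from RefSeq, GRCm38.p6, and all 4 Cyp2b genes matched. The members and lists were chosen with earlier results of these data known. Named genes were the members, Arid1a, sex chromosome transcripts, cluster genes, the 3 nearest in pattern, and up to 5 called genes per list, or the 1 with the smallest p where none was called. Rxra, Nr1i2, Hnf4a, Cyp2c29, Cyp2c37 and Clec4f were chosen after their values were seen. Same-numbered libraries had correlations of deviations of 0.096, -0.067, 0.015 and 0.25, against -0.183 to 0.129 for pairs with different numbers. The value of 0.25, for replicate 4, was the highest of all pairs. The labels do not say what the numbers share, and they were not taken to pair the libraries. The fit was tested on simulated data. Alternatives were other pseudocounts, filters and scalings, array weights, the replicate block and leaving out libraries.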

Additional observations from a re-analysis of the deposited data

Results flagged for a closer look

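In 3 of 24 groups of 4 libraries, 1 library stood away from the other 3 by more than Dixon's 95% critical share of the group's range, on the FPKM scale. The groups were the KO and WT libraries of the 5 members, Tomm40l, Arid1a, Cyp2a4, Cyp2a5, Dbp, Cyp4a10 and Xist. Chance gives this in about 1 group in 20 for genes picked without regard to their values. Tomm40l was named for its overlap with and likeness to Nr1i3, and Dbp and Cyp4a10 for libraries that stood apart. The 3 groups thus cannot be set against that rate. Nr1i3 was at 76.7 FPKM in KO 2, against 25.0 to 29.2 FPKM in the other KO libraries, a gap of 0.918 of the range. Tomm40l, which overlaps Nr1i3 on the opposite strand, was at 26.4 FPKM in KO 2, against 11.4 to 12.0 FPKM in the other KO libraries, a gap of 0.956 of the range. The 2 genes can share reads, so these are not independent. Cyp4a10 was at 317 FPKM in WT 4, against 41.8 to 54.3 FPKM in WT 1 to WT 3, a gap of 0.955 of the range. On the log2(FPKM + 1) scale 5 of the 24 groups were past that share. These were the same 3 and the WT groups of Cyp2b9 and Cyp2b13, where WT 4 stood 0.891 and 0.836 of the range below the others. In KO both genes had 2 low and 2 high libraries and no library past it.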

How the results depend on the processing

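Every change of the 4 tested members was negative in every fit made. The log2 change ran from -5.45 to -1.35 for Cyp2b9 and from -4.26 to -1.15 for Cyp2b13 over 17 settings, and from -1.33 to -0.09 for Cyp2b10 over 16, since it was not tested at a minimum of 5 FPKM. None of these was called (limma adjusted p = 0.214 to 0.954, 0.127 to 0.95 and 0.302 to 0.981). Leaving out 1 library gave -4.30 to -1.35 for Cyp2b9, -3.35 to -1.15 for Cyp2b13 and -1.09 to -0.09 for Cyp2b10. Nr1i3 ran from -1.28 to -0.68, and from -1.21 to -0.68 with 1 library left out. It was called without KO 2 (-1.21, limma adjusted p = 0.0289) and with WT 4 and KO 2 both left out (-1.28, limma adjusted p = 0.0391). In the 15 other settings it was not.

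Over all genes 46 were higher and 40 lower in KO. Those higher numbered 27 with a pseudocount of 5 FPKM, 14 at a minimum of 5 FPKM, 16 with the replicate block, 75 without WT 4 and KO 2, and 20 to 92 with 1 library left out. Those lower numbered 26 with no filter, 13 at a minimum of 5 FPKM, 8 with the replicate block and 14 to 44 with 1 library left out. The cause was not tested. With the replicate block the limma adjusted p was 0.491 for Cyp2b9, 0.444 for Cyp2b13, 0.504 for Cyp2b10 and 0.433 for Nr1i3, so no member's call changed. The block lowered the SE from 2.1 to 1.1 for Cyp2b9, from 1.55 to 0.78 for Cyp2b13 and from 0.61 to 0.23 for Cyp2b10. For Nr1i3 the SE was 0.33 without it and 0.34 with it. Of 476 counts over gene lists under other settings, 56 moved, by over 1.5 times or to or from 0. Most of the others were counts of 0 that stayed 0, so they say little on how stable the called genes are. The counts for cell type markers were added after the data were seen. With 4 libraries a group and SDs near 3.7 on the log2 scale, the intervals of Cyp2b9 and Cyp2b13 include no change as well as large decreases, and Cyp2b23 lay at the level of a few reads.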
